A study of Mus musculus with 30 samples.

Results

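The genes described here are a pair of neuregulin receptors, Erbb2 and Erbb3, and the ETS transcription factors Etv1, Etv4, Etv5 and Gabpa, which are known from the nuclei beneath the neuromuscular junction. They were taken as a list of symbols, matched through the gene identifiers of the count table, and are 6 of its 33076 genes. All 6 passed the filter on low counts in every comparison. The data are bulk RNA-seq of diaphragm from 15 male mice. They model SBMA, spinal and bulbar muscular atrophy, in which muscle wastes and motor neurons are lost. SBMA animals carried the BACfxAR121 transgene (written BACfxR121 in the sample labels), which is floxed. Control animals were littermates with HSA-Cre;BACfxAR121, in which a skeletal actin promoter drives Cre recombinase in muscle fibres, and the submitters describe them as rescued in muscle. Both genotypes therefore carry the transgene, and cells other than muscle fibres are not targeted by this Cre. Each diaphragm gave a perisynaptic library, from tissue with neuromuscular junctions, and an extrasynaptic library, from tissue without them. At 15 weeks of age there were 4 SBMA and 3 control animals, and at 26 weeks 4 SBMA and 4 control animals. The 8 groups are thus each genotype at each age in each region, with separate animals as replicates.

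Neuregulins are growth factors of motor nerve endings, Schwann cells and muscle. They bind ERBB3 or ERBB4, and ERBB3, whose own kinase is very weak, signals by pairing with ERBB2. In muscle fibres the signal passes through Ras and the MAP kinases to ETS factors, and Schwann cells at the junction depend on the same receptors. GABPA, with a GABP beta partner, binds the N-box, a promoter element with the ETS core CCGGAA that is known from genes of acetylcholine receptor subunits and of acetylcholinesterase. ETV1, ETV4 and ETV5 form the PEA3 subfamily of ETS factors, and Etv5 is known for its transcription in nuclei under the synapse.

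The 6 genes lie on 4 chromosomes of GRCm38. Erbb2 is at chr11:98412470-98437716 on the plus strand and Etv4 at chr11:101769742-101785371 on the minus strand. Erbb3 is at chr10:128567523-128589652 on the minus strand, and Etv1 at chr12:38779380-38870484 on the plus strand. Etv5 is at chr16:22381309-22439719 on the minus strand, and Gabpa at chr16:84834925-84863779 on the plus strand. In GENCODE vM21 the exons of Gabpa share 397 bases with those of Atp5j, a subunit gene of the mitochondrial ATP synthase on the opposite strand. Atp5j had 7376 to 13842 counts per library, against 486 to 2073 for Gabpa. The strand setting of the counting is not given in the sources used here, so the Gabpa values are uncertain. Erbb2 shares 9 exon bases with Mien1 on the opposite strand.

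Promoter windows from 250 bases before to 50 bases after the transcription start were searched for the ETS core CCGGAA and its reverse complement TTCCGG, which are the same site read on either strand. Of 32851 RefSeq windows of this length on GRCm38.p6, 4894 (14.9%) held it. Windows were at hand for 4 of the 6 genes, 6 windows in all, and 1 of these, that of Gabpa, held the core. Among 14 synaptic genes of muscle, 10 had windows, 11 in all, and 1 held the core: Chrne, the adult acetylcholine receptor subunit with a well known N-box. The windows of Gabpa (chr16:84834874-84835173, plus strand) and Chrne (chr11:70619145-70619444, minus strand) are shown as the 2 matches, and that of Etv5 (chr16:22439521-22439820, minus strand) because Etv5 differed between the regions in every group. They read 5′ to 3′ on the strand of the gene, with the core in capitals.
Gabpa: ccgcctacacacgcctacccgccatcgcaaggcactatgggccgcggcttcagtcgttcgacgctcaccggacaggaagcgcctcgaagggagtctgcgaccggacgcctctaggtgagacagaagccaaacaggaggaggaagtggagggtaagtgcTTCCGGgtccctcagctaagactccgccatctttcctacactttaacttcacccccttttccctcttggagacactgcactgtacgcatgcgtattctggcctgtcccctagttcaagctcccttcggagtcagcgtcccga
Chrne: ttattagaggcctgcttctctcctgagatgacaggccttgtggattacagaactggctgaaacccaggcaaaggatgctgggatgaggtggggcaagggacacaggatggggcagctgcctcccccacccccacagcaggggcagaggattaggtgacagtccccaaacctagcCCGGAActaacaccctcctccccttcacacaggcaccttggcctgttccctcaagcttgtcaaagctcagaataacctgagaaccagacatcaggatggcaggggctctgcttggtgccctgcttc
Etv5: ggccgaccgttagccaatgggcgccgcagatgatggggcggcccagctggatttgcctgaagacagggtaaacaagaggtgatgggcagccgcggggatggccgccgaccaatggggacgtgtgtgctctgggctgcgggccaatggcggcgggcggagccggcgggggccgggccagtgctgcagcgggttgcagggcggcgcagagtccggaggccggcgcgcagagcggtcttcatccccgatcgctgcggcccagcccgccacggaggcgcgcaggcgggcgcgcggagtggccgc
The first base of the core lay at position -92 from the RefSeq start in Gabpa, read as TTCCGG, and at -76 in Chrne, read as CCGGAA. The gene start given above for Gabpa, chr16:84834925, lies within this window and before the core. By that start the core is inside the gene. A match is only a description of these letters.

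Libraries held 16280873 to 34694446 counts. The pieces differed in synaptic content as labelled: Chrne had 16.8 to 35.1 CPM (counts relative to library size, scaled with TMM factors) in the 15 perisynaptic libraries, against 0.0347 to 4.39 CPM in the 15 extrasynaptic libraries. The highest extrasynaptic values were 4.39 CPM in SBMA replicate 1 at 15 weeks and 1.71 CPM in SBMA replicate 4 at 26 weeks. The 8 muscle fibre markers were abundant in every library, but at 26 weeks 6 of them were lower in SBMA in both regions and 1 was higher, Des, the gene of the intermediate filament desmin (0.37 ± 0.11 perisynaptic and 0.34 ± 0.08 extrasynaptic, log2). Their summed level was then 44600 to 57400 CPM in SBMA and 78700 to 100000 CPM in control perisynaptic libraries, and 50300 to 61200 CPM in SBMA and 84500 to 106000 CPM in control extrasynaptic libraries. Of all genes 14% differed between genotypes in perisynaptic and 32.2% in extrasynaptic libraries at that age, by the test given below. The part of the fibre markers in the results below was not tested.

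Per exon length, Gabpa was the most abundant of the 6 genes and Etv1 the least. The mean of the 8 groups was 9.62 RPKM for Gabpa, 4.47 for Etv5, 3.12 for Erbb3, 2.39 for Etv4, 1.18 for Erbb2 and 0.183 for Etv1. Group means ran from 0.156 to 6.62 RPKM for Etv4 and from 1.11 to 8.49 RPKM for Etv5. Group means of Erbb2 stayed between 1.07 and 1.30 RPKM. Etv1 was counted thinly, with group means of 0.128 to 0.275 RPKM.

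**Figure D1:**
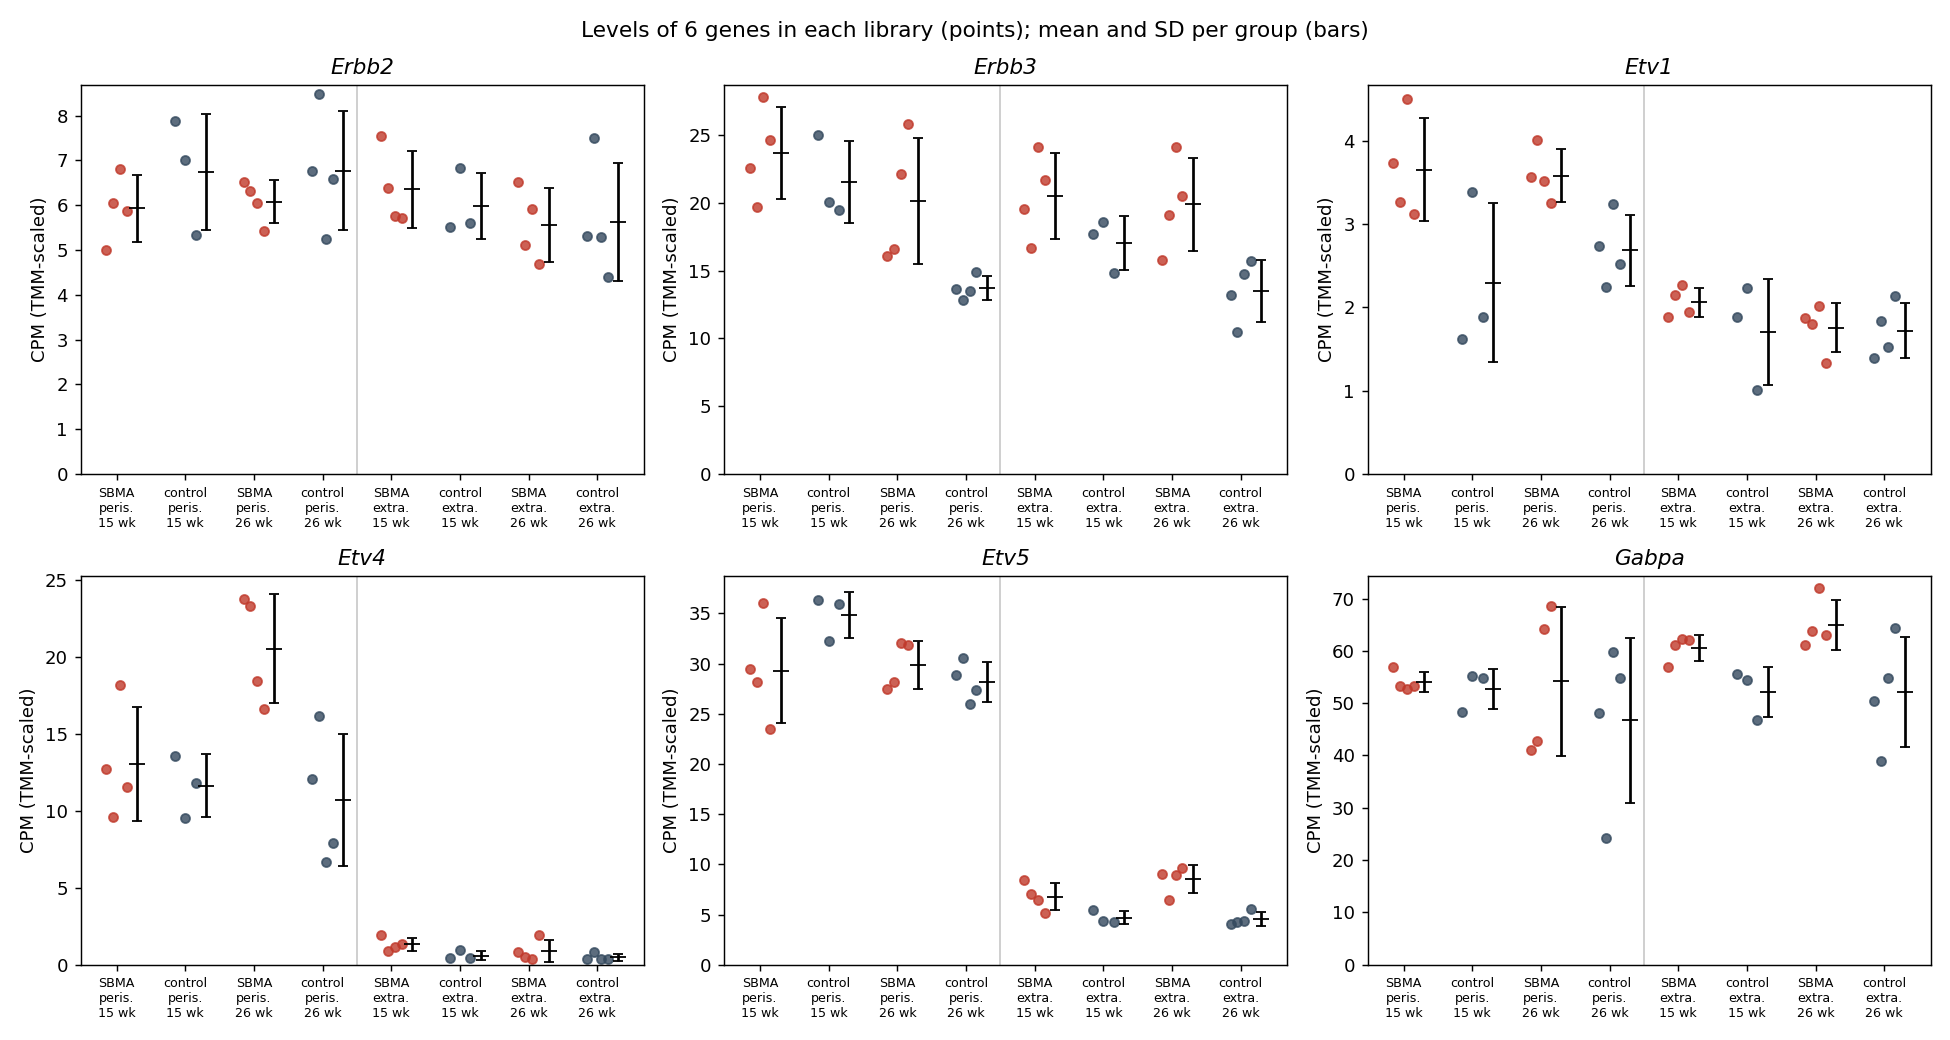
Level of each of the 6 genes in CPM (y axis, scaled with TMM factors) in the 8 groups (x axis), with 1 point per library and bars for the mean and SD of 4 animals, or of 3 in control groups at 15 weeks. Etv4 and Etv5 stood apart by region, with every perisynaptic point above every extrasynaptic point, while Erbb2 and Gabpa did not.

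The 8 groups fell into 2 separate levels for Etv4 and for Etv5. The lowest perisynaptic mean of Etv4, 10.7 ± 4.30 CPM in control at 26 weeks, stood 9.38 CPM above the highest extrasynaptic mean, 1.33 ± 0.434 CPM in SBMA at 15 weeks (SD, n = 4 each). For Etv5 the corresponding gap was 19.6 CPM, between 28.2 ± 1.97 CPM in control perisynaptic and 8.54 ± 1.40 CPM in SBMA extrasynaptic libraries at 26 weeks (SD, n = 4 each). Among extrasynaptic groups the 2 SBMA means of Etv5 stood first, each above the next group by more than the larger SD, with overlapping ranges. Among perisynaptic groups control at 15 weeks stood first, 4.94 CPM above SBMA at 26 weeks, with no overlap. In the order of Etv4, the first group was SBMA perisynaptic at 26 weeks with 20.5 ± 3.55 CPM (SD, n = 4), 7.51 CPM above the next. Neighbours among the other 3 perisynaptic groups, and among the 4 extrasynaptic groups, differed by less than the larger of their SDs. Etv1 had its highest means in SBMA perisynaptic libraries, 3.65 ± 0.618 CPM at 15 weeks and 3.58 ± 0.313 CPM at 26 weeks (SD, n = 4 each). The next group, control perisynaptic at 26 weeks, had 2.69 ± 0.425 CPM (SD, n = 4) and did not overlap with SBMA at that age. The other neighbours in the order of Etv1 differed by less than the larger SD, except SBMA extrasynaptic at 15 weeks, 2.06 ± 0.178 CPM, over SBMA extrasynaptic at 26 weeks, 1.76 ± 0.294 CPM (SD, n = 4 each). Erbb3 had its lowest means in both control groups at 26 weeks, 13.7 ± 0.883 CPM perisynaptic and 13.5 ± 2.29 CPM extrasynaptic (SD, n = 4 each). The remaining Erbb3 groups lay between 17.1 and 23.7 CPM, and their neighbours differed by less than the larger of their SDs, with 1 exception. The lowest of them, control extrasynaptic at 15 weeks, stood 3.34 CPM above control perisynaptic at 26 weeks. No neighbours in the order of Erbb2 or Gabpa differed by more than the larger SD.

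The first question of the design is how SBMA differs from control muscle. At 15 weeks none of the 6 genes passed the test in either region. The test was edgeR's quasi-likelihood test over all genes, with a call at a Benjamini-Hochberg adjusted p under 0.05, and it called 0.21% of 15735 genes in perisynaptic and 1.22% of 15526 genes in extrasynaptic libraries. At 26 weeks 2 of the 6 genes were higher in SBMA in perisynaptic libraries, Erbb3 and Etv4, where 14% of all genes were called. In extrasynaptic libraries 3 were higher in SBMA, Etv5, Erbb3 and Gabpa, where 32.2% of all genes were called. None of the 6 was called lower in SBMA at either age. With so many genes called at 26 weeks, these counts say nothing particular of the 6 genes. Changes are given as log2 fold changes, SBMA over control, with a standard error. Here and below, that error is the size of the log2 change divided by the square root of the test's F statistic. In bulk tissue, more cells of a type and more RNA per cell cannot be told apart.

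**Figure D2:**
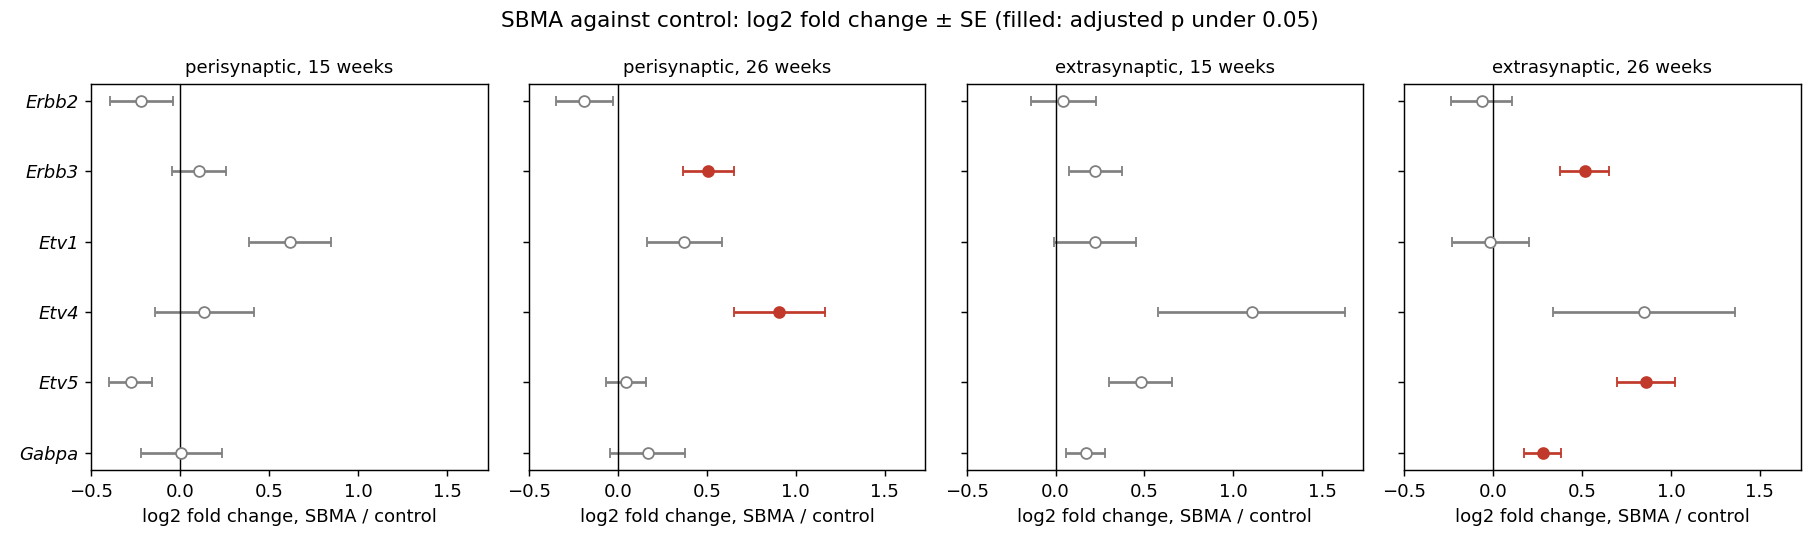
Log2 fold change of SBMA over control (x axis) with its SE (bars) for the 6 genes (rows) in each region and age, filled where the adjusted p was under 0.05. Erbb3 was called in both regions at 26 weeks, Etv4 in perisynaptic libraries alone, and Etv5 and Gabpa in extrasynaptic libraries alone; differences between regions were tested separately.

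Erbb2, the shared signalling partner of the other receptors, showed no called difference in any of the 4 comparisons of genotype. In perisynaptic libraries at 26 weeks replicates 1 to 4 had 6.52, 6.31, 6.05 and 5.42 CPM in SBMA, against 6.76, 8.48, 5.24 and 6.58 CPM in control. The groups overlapped, and the 95% interval of the log2 change, from its SE and the 11 residual degrees of freedom, was -0.55 to 0.17. In extrasynaptic libraries at 26 weeks the log2 change was -0.06 ± 0.17, with an interval of -0.44 to 0.31. At 15 weeks it was -0.22 ± 0.18 in perisynaptic and 0.04 ± 0.18 in extrasynaptic libraries.

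Erbb3, the neuregulin-binding receptor, was higher in SBMA at 26 weeks in both regions. In perisynaptic libraries replicates 1 to 4 had 16.1, 16.6, 22.2 and 25.8 CPM in SBMA, against 13.6, 12.8, 13.5 and 14.9 CPM in control. Every SBMA value lay above every control value, and SBMA replicates 3 and 4 were the highest. The log2 change was 0.51 ± 0.14 (adjusted p = 0.0256), or 1.42-fold. In extrasynaptic libraries the 4 SBMA animals had 15.8, 19.1, 24.1 and 20.6 CPM, against 13.2, 10.4, 14.7 and 15.7 CPM in control. These did not overlap either, by a narrow margin, and the log2 change was 0.52 ± 0.14 (adjusted p = 0.0108). At 15 weeks the log2 change was 0.11 ± 0.15 perisynaptic and 0.22 ± 0.15 extrasynaptic, and neither was called. The perisynaptic call at 26 weeks was lost without control replicate 1 or 3 or SBMA replicate 3 or 4, with an adjusted p of 0.0577, 0.0547, 0.0742 and 0.0895, and with only the groups compared (0.0648), while the extrasynaptic call held without any 1 animal.

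Within the runs of consecutive animal numbers, each with 2 SBMA and 2 control animals at 26 weeks, Erbb3 was higher in SBMA in both. The perisynaptic log2 difference was 0.30 in the first run and 0.75 in the second, and the extrasynaptic difference 0.56 and 0.55. Erbb3 is also a gene of Schwann cells, and their 12 markers were read beside it. None of the 12 was called between SBMA and control in perisynaptic libraries at 26 weeks, with a median log2 change of -0.08, and in extrasynaptic libraries 1 was, Ngfr, a neurotrophin receptor, which was lower in SBMA (-1.61 ± 0.52). The summed level of the 12 was 153 to 212 CPM in SBMA and 124 to 270 CPM in control perisynaptic libraries, and 66.1 to 75.6 CPM in SBMA and 70.6 to 78.1 CPM in control extrasynaptic libraries. Markers of satellite cells, the muscle stem cells, were higher in SBMA at this age for 5 of 7 genes in perisynaptic and 4 of 7 in extrasynaptic libraries. Their summed level was 158 to 201 CPM in SBMA against 92.8 to 129 CPM in control perisynaptic libraries, and 155 to 222 CPM against 91.6 to 131 CPM in extrasynaptic libraries. The counts of called markers stand against the 14% of all genes called in perisynaptic and the 32.2% called in extrasynaptic libraries. The part of satellite cells in the results on Erbb3 and the ETS factors was not tested.

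Etv4, a PEA3 factor, was higher in SBMA near the junctions at 26 weeks. Perisynaptic replicates 1 to 4 had 23.8, 23.3, 18.4 and 16.6 CPM in SBMA, against 12.1, 16.2, 6.69 and 7.91 CPM in control. The lowest SBMA value stood just above the highest control value, and control replicates 3 and 4 were the lowest. The log2 change was 0.91 ± 0.26 (adjusted p = 0.0281), or 1.88-fold. Within the runs of animal numbers it was 0.75 and 1.26. The call was lost without control replicate 3 or 4 or SBMA replicate 1 or 2, with an adjusted p of 0.0742, 0.0732, 0.0741 and 0.0736, and with only the groups compared (0.0695). At 15 weeks the perisynaptic replicates had 12.7, 9.61, 18.2 and 11.6 CPM in SBMA and 13.6, 9.52 and 11.8 CPM in control, which overlapped throughout, with a log2 change of 0.14 ± 0.28.

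Away from the junctions Etv4 was near the limit of counting, with 10 to 50 counts per SBMA library and 8 to 22 per control library. At 15 weeks SBMA replicates 1 to 4 had 1.93, 0.908, 1.15 and 1.34 CPM, against 0.440, 0.944 and 0.410 CPM in control. At 26 weeks they had 0.853, 0.521, 0.347 and 1.92 CPM in SBMA, against 0.370, 0.833, 0.359 and 0.378 CPM in control. Both sets overlapped, and the log2 changes of 1.10 ± 0.52 and 0.85 ± 0.51 were not called. Without SBMA replicate 4 the change at 26 weeks was 0.18. The highest value at each age, SBMA replicate 1 at 15 weeks and SBMA replicate 4 at 26 weeks, came from the libraries with the highest extrasynaptic Chrne at that age. Its part in these values was not tested.

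Etv5, the PEA3 factor of synaptic nuclei, was higher in SBMA at 26 weeks away from the junctions. Extrasynaptic replicates 1 to 4 had 9.04, 6.50, 8.96 and 9.65 CPM in SBMA, against 4.03, 4.30, 4.40 and 5.54 CPM in control. No SBMA value fell within the control range, and SBMA replicate 2 came nearest to it. The log2 change was 0.86 ± 0.16 (adjusted p = 0.00102), or 1.81-fold, and it kept its call in all 8 fits that left out 1 animal of that age (0.78 to 0.97). Within the runs of animal numbers it was 0.87 and 0.90. Chrne was at 0.128, 0.174 and 0.0347 CPM in SBMA replicates 1 to 3 and at 1.71 CPM in replicate 4. Control libraries had 0.324 to 0.718 CPM. These are 1 to 41 counts per SBMA library and 7 to 16 per control library. Of other synaptic genes, Chrnd had 1.49 to 4.47 CPM in SBMA and 0.921 to 2.15 CPM in control. Ache had 5.49 to 8.94 CPM in SBMA and 6.18 to 8.53 CPM in control. Colq had 50.7 to 69.6 CPM in SBMA and 15.3 to 20.9 CPM in control. The part of junction tissue in the Etv5 values was not tested. Satellite cell markers in these extrasynaptic libraries were higher in SBMA for 4 of 7 genes, and Schwann cell markers are given above. Markers were lower in SBMA for 5 of 7 macrophage, 4 of 7 fibroadipogenic, 4 of 6 mesothelial and 3 of 8 endothelial genes, with none higher. Of 5 smooth muscle genes 2 were lower and 1 higher, and no adipocyte gene was called. These counts stand against the 32.2% of all genes called in this comparison. The part of these cells in the results was not tested.

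At 15 weeks extrasynaptic Etv5 was 8.40, 7.01, 6.46 and 5.18 CPM in SBMA and 5.48, 4.38 and 4.23 CPM in control. The groups overlapped at SBMA replicate 4, and the log2 change of 0.48 ± 0.18 did not pass (adjusted p = 0.223). SBMA replicate 1, with the highest Etv5, also held the most extrasynaptic Chrne, 4.39 CPM, against 0.319 to 0.472 CPM in control. The part of junction tissue in these Etv5 values was not tested. Near the junctions Etv5 was called at neither age. At 26 weeks perisynaptic replicates had 27.5, 28.2, 32.0 and 31.9 CPM in SBMA, against 28.9, 30.5, 25.9 and 27.3 CPM in control, with a log2 change of 0.04 ± 0.11 and an interval of -0.20 to 0.29. At 15 weeks they had 29.4, 28.2, 36.1 and 23.5 CPM in SBMA, against 36.3, 32.2 and 36.0 CPM in control (log2 change -0.28 ± 0.12, adjusted p = 0.647). The interval at 15 weeks, not adjusted for the number of genes, was -0.54 to -0.01, below 0.

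Etv1, the least abundant of the PEA3 factors here, was not called between genotypes. In perisynaptic libraries at 26 weeks SBMA replicates had 3.56, 4.01, 3.51 and 3.25 CPM, against 2.74, 2.24, 3.25 and 2.52 CPM in control. The groups met at 3.25 CPM without overlapping, and the log2 change of 0.37 ± 0.21 did not pass (adjusted p = 0.257). At 15 weeks the perisynaptic values were 3.73, 3.26, 4.50 and 3.13 CPM in SBMA and 1.62, 3.39 and 1.89 CPM in control (log2 change 0.62 ± 0.23, adjusted p = 0.527). Extrasynaptic log2 changes were 0.22 ± 0.23 at 15 weeks and -0.02 ± 0.21 at 26 weeks.

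Gabpa, the N-box binding subunit, was higher in SBMA extrasynaptic libraries at 26 weeks at the edge of the threshold. SBMA replicates had 61.1, 63.9, 72.0 and 63.0 CPM, against 50.5, 38.9, 54.8 and 64.4 CPM in control. Control replicate 4 lay within the SBMA range, and the log2 change was 0.28 ± 0.10 (adjusted p = 0.0486). The call was lost without any 1 of 7 of the 8 animals of that age, with an adjusted p of 0.0513 to 0.117, and stayed only without control replicate 4. It was also lost with no filter on low counts (adjusted p = 0.0526), with only the groups compared (0.0845) and with the replicate number as a block (0.0619). At 15 weeks the extrasynaptic values were 56.9, 61.1, 62.3 and 62.0 CPM in SBMA and 55.5, 54.4 and 46.8 CPM in control, which did not overlap, but the log2 change of 0.17 ± 0.11 was not called. In perisynaptic libraries at 26 weeks Gabpa differed between the runs of animal numbers more than between genotypes. The first run had 41.1 and 42.8 CPM in SBMA and 48.1 and 24.2 CPM in control, and the second 64.2 and 68.6 CPM in SBMA and 59.8 and 54.8 CPM in control. The log2 change between genotypes was 0.17 ± 0.21 there and 0.01 ± 0.23 at 15 weeks.

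Scaling by total counts alone moves the median gene up in SBMA, by 0.24 in perisynaptic and 0.18 in extrasynaptic libraries at 26 weeks and by 0.19 in extrasynaptic libraries at 15 weeks. With total counts 3 more differences passed, each higher in SBMA: Etv1 in perisynaptic libraries at 26 weeks (0.64, adjusted p = 0.0423), and Etv5 (0.67, adjusted p = 0.0221) and Gabpa (0.36, adjusted p = 0.0247) in extrasynaptic libraries at 15 weeks. The Erbb2 values at 26 weeks, which were below 0 with TMM factors, were above 0 with total counts, at 0.06 in perisynaptic and 0.14 in extrasynaptic libraries. The same holds for Etv1 in extrasynaptic libraries at 26 weeks, at 0.20.

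The second question is how the regions differ within an animal. Etv4 and Etv5 were higher in perisynaptic than in extrasynaptic libraries in all 4 groups and in 15 of 15 animals. Etv1 was called in SBMA at both ages and was higher in perisynaptic tissue in 14 of 15 animals. Erbb2, Erbb3 and Gabpa were not called in any group in this fit; alternatives that called Erbb3 or Gabpa are given with their values below. The calls were 3 of 6 genes in SBMA at 15 weeks, 2 of 6 in control at 15 weeks, 3 of 6 in SBMA at 26 weeks and 2 of 6 in control at 26 weeks. Of all 16138 genes, 0.948%, 1.16%, 2.07% and 1.18% were called in those comparisons, in that order. In SBMA at 26 weeks 334 genes were called with all animals and 1594 without SBMA replicate 4.

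**Figure D3:**
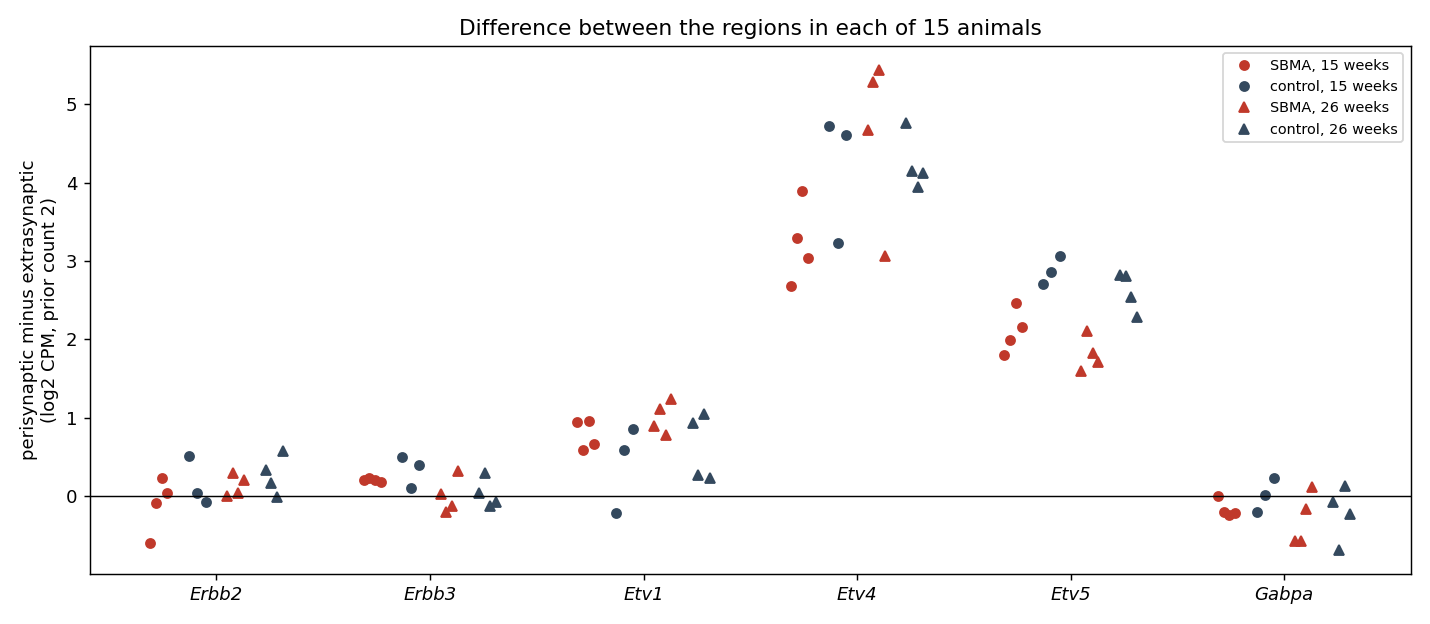
Perisynaptic minus extrasynaptic log2 CPM (y axis, prior count 2) of each gene (x axis) in each of 15 animals, with 1 point per animal, circles for 15 weeks and triangles for 26 weeks. For Etv5 the 8 SBMA animals lay below the control animals of their age, while for Etv4 the genotypes overlapped at both ages.

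Etv4 had the widest difference between regions. At 15 weeks the ratio of perisynaptic to extrasynaptic CPM was 6.61, 10.6, 15.8 and 8.63 in SBMA replicates 1 to 4, against 30.9, 10.1 and 28.9 in control. At 26 weeks it was 27.9, 44.8, 53.0 and 8.66 in SBMA, against 32.6, 19.4, 18.6 and 20.9 in control. The low ratio of SBMA replicate 4 at 26 weeks is that of the animal whose extrasynaptic library held the most Chrne at that age. The same holds for the lowest ratio at 15 weeks, 6.61 in SBMA replicate 1. Fitted with a term for each animal, the log2 difference was 3.29 ± 0.29 in SBMA and 4.26 ± 0.40 in control at 15 weeks, and 4.55 ± 0.31 in SBMA and 4.45 ± 0.36 in control at 26 weeks. The largest of the 4 adjusted p was 7.76e-06. Whether the region difference depended on genotype was tested as an interaction, which was -0.97 ± 0.56 at 15 weeks and 0.10 ± 0.61 at 26 weeks and was called at neither age. With no filter on low counts it passed at 15 weeks (-0.98, adjusted p = 0.0431).

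Etv5 was higher near the junctions by 3.04- to 8.49-fold in single animals. At 15 weeks the ratio was 3.51, 4.02, 5.59 and 4.53 in SBMA replicates 1 to 4, against 6.62, 7.36 and 8.49 in control. At 26 weeks it was 3.04, 4.34, 3.57 and 3.30 in SBMA, against 7.17, 7.10, 5.90 and 4.94 in control. At each age every SBMA ratio lay below every control ratio. The lowest SBMA ratio at 15 weeks was that of replicate 1, whose extrasynaptic library held the most Chrne at that age. At 26 weeks replicate 4 held the most Chrne among extrasynaptic SBMA libraries, and its ratio was not the lowest. The part of Chrne-rich tissue in these ratios was not tested. The log2 difference between regions was 2.13 ± 0.11 in SBMA and 2.89 ± 0.14 in control at 15 weeks, and 1.81 ± 0.11 in SBMA and 2.62 ± 0.12 in control at 26 weeks. The largest adjusted p among the 4 was 1.3e-07.

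By edgeR's quasi-likelihood test, the interaction of genotype and region for Etv5 was -0.76 ± 0.18 at 15 weeks, with an unadjusted p of 0.000558 and an adjusted p of 0.644. At 26 weeks it was -0.81 ± 0.16 by the same edgeR test, with an unadjusted p of 0.000118 and an adjusted p of 0.271. Adjusted over all genes it passed at neither age, in a comparison where 0% of genes were called at 15 weeks and 0.0124% at 26 weeks. At 15 weeks no gene passed with edgeR, 421 had an unadjusted p under 0.05 and DESeq2 called 5. At 26 weeks edgeR called 2 genes and DESeq2 5, among them Etv5 (adjusted p = 0.0451). With no filter on low counts edgeR called Etv5 at both ages, at -0.77 (adjusted p = 0.000391) at 15 weeks and -0.80 (adjusted p = 3.34e-05) at 26 weeks, where 154 and 65 genes were called in all. Chrna1, the acetylcholine receptor alpha subunit, was 1 of the 2 genes called by edgeR at 26 weeks, with an interaction of -1.01 ± 0.15 (adjusted p = 0.0212).

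Etv1 differed less between the regions. The ratio was 1.98, 1.52, 1.98 and 1.61 in SBMA and 0.86, 1.52 and 1.88 in control at 15 weeks. At 26 weeks it was 1.90, 2.22, 1.74 and 2.43 in SBMA and 1.97, 1.22, 2.13 and 1.18 in control. Control replicate 1 at 15 weeks was the 1 animal with less Etv1 near the junctions. The log2 difference was 0.83 ± 0.16 (adjusted p = 0.0111) in SBMA and 0.40 ± 0.21 (adjusted p = 0.7) in control at 15 weeks. At 26 weeks it was 1.03 ± 0.16 (adjusted p = 0.00134) in SBMA and 0.64 ± 0.17 (adjusted p = 0.103) in control. The genotypes were not shown to differ, with interactions of 0.43 ± 0.26 and 0.39 ± 0.24 that were not called. The SBMA call at 15 weeks was lost without replicate 1 or 3, with an adjusted p of 0.0635 and 0.126, and with no animal term (0.0515). In control at 26 weeks Etv1 passed with no filter on low counts (adjusted p = 0.0126).

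Erbb3, Erbb2 and Gabpa differed far less between the regions than Etv4 and Etv5. The log2 difference of Erbb3 was 0.22 ± 0.08 in SBMA and 0.33 ± 0.09 in control at 15 weeks (adjusted p = 0.372 and 0.117), and 0.00 ± 0.08 in SBMA and 0.03 ± 0.08 in control at 26 weeks. At 15 weeks the interval of that difference, not adjusted for the number of genes, was 0.06 to 0.39 in SBMA and 0.13 to 0.53 in control. The ratio in single animals was then 1.14 to 1.18 in SBMA and 1.08 to 1.41 in control. At 26 weeks the interval was -0.17 to 0.17 in SBMA and -0.15 to 0.21 in control. Erbb3 was higher near the junctions in 11 of 15 animals. Schwann cell markers were higher in perisynaptic libraries in the same animals, for 6 of 12 genes in SBMA and 6 of 12 in control at 15 weeks, and for 6 of 12 in SBMA and 8 of 12 in control at 26 weeks. Sox10, a transcription factor of Schwann cells and 1 of the 12, had a log2 difference of 2.70 ± 0.32 in SBMA and 2.77 ± 0.34 in control at 26 weeks. The mean summed level of the 12 was then 180 CPM perisynaptic against 70.9 CPM extrasynaptic in SBMA, and 184 against 74.3 CPM in control. Erbb2 differed between regions by -0.08 to 0.28, and Gabpa by -0.30 to 0.01, over the 4 groups. Gabpa was higher in extrasynaptic tissue in 11 of 15 animals, with its lowest fitted value, -0.30 ± 0.11, in SBMA at 26 weeks (adjusted p = 0.132). That difference passed with no filter on low counts (adjusted p = 0.0124) and without SBMA replicate 4 (-0.41, adjusted p = 0.0443). Erbb3 in control at 15 weeks passed with total counts (0.43, adjusted p = 0.0184).

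The third comparison is of age. The animals of each age come from their own runs of numbers, so age and run cannot be told apart. None of the 6 genes was called between 26 and 15 weeks. This held in SBMA, where 3.95% of genes were called in perisynaptic and 12.1% in extrasynaptic libraries. It held in control, where edgeR called 0% of genes in both regions, 891 and 1036 genes had an unadjusted p under 0.05, and DESeq2 called 36 and 54. The widest fitted change was that of Erbb3 in control perisynaptic libraries, 13.6, 12.8, 13.5 and 14.9 CPM at 26 weeks against 25.0, 20.1 and 19.5 CPM at 15 weeks. All values at 26 weeks lay below those at 15 weeks, and the log2 change of -0.66 ± 0.15 had an unadjusted p of 0.000557, an adjusted p of 0.328 with edgeR and of 0.049 with DESeq2. In SBMA perisynaptic libraries the Erbb3 change was -0.26 ± 0.14. Etv4 in SBMA perisynaptic libraries was 0.64 ± 0.25 higher at 26 weeks (adjusted p = 0.198), against -0.13 ± 0.28 in control.

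Whether SBMA minus control differed between the ages was tested as an interaction of genotype and age, and none of the 6 genes was called in it. Of all genes 0.375% were called in perisynaptic and 1.73% in extrasynaptic libraries. The interaction was 0.40 ± 0.21 for Erbb3 and 0.77 ± 0.38 for Etv4 in perisynaptic libraries (adjusted p = 0.66 and 0.63), and 0.38 ± 0.24 for Etv5 in extrasynaptic libraries (adjusted p = 0.477). For these genes the effect of SBMA was thus not shown to differ between the ages.

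The other genes of the pathway were read in lists, against the shares of all genes called given above. At 15 weeks 3 genes of all these lists were called between SBMA and control, Errfi1, Chrna1 and Colq in extrasynaptic libraries, and none in perisynaptic libraries. Of 11 ErbB ligands, 6 were counted well enough to test, and Nrg1 and Nrg3 were not among them. At 26 weeks 1 of the 6 was higher in SBMA in each region and none lower: Egf, with a log2 change of 1.05 ± 0.25 in perisynaptic and 1.16 ± 0.17 in extrasynaptic libraries. Of 3 sheddases that release ligands from the membrane, 1 was higher in extrasynaptic libraries, Bace1, by 0.56 ± 0.09.

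Of 9 other ErbB receptors and receptor regulators, 8 were tested. In extrasynaptic libraries at 26 weeks 5 were higher and 1 lower in SBMA, with a median log2 change of 0.42, against a median of -0.03 over all genes. Lrig1, a membrane protein that restrains ErbB receptors, rose by 0.70 ± 0.09, Rnf41, the ubiquitin ligase known for turning over ERBB3, by 0.46 ± 0.06, and Erbin, an ERBB2-binding scaffold, by 0.95 ± 0.15. Errfi1, a feedback inhibitor of the receptor kinases, was the 1 that fell (-0.52 ± 0.18), and it was lower at 15 weeks too in extrasynaptic libraries (-0.94 ± 0.19, adjusted p = 0.0248). Erbb4, the alternative neuregulin receptor, named after its value was seen, was higher by 0.91 ± 0.23 (adjusted p = 0.00821). In perisynaptic libraries 3 of the 8 were higher, Rnf41, Erbin and Lrig1 again, and none lower, and Erbb4 was at 0.86 ± 0.49.

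Of 19 genes of the Ras and MAP kinase relay, 4 were higher and 1 lower in SBMA in extrasynaptic libraries at 26 weeks. Ptpn11, a phosphatase needed for Ras activation, was higher by 0.66 ± 0.12, Grb2, an adaptor, by 0.40 ± 0.07, and Map2k1, a MAP kinase kinase, by 0.25 ± 0.06. In perisynaptic libraries Grb2 was higher (0.43 ± 0.10) and Rps6ka1, a kinase downstream of ERK, lower (-0.83 ± 0.17). Between regions 2 of the 19 were higher near the junctions in every group, Rps6ka1 and Map2k1. Rps6ka1 differed by 2.06 ± 0.13 in SBMA and 2.48 ± 0.13 in control at 26 weeks, and Map2k1 by 0.44 ± 0.06 in SBMA and 0.51 ± 0.06 in control.

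Of 9 feedback inhibitors of MAP kinase signalling, 2 were higher in SBMA in each region at 26 weeks and none lower. These were Dusp4, a phosphatase of MAP kinases (0.85 ± 0.17), and Spred2 (0.32 ± 0.10) in perisynaptic libraries, and Spry2 (0.40 ± 0.09) and Spred2 (0.40 ± 0.14) in extrasynaptic libraries. Between regions Dusp6, a phosphatase of ERK, was higher near the junctions in all 4 groups, by 0.77 ± 0.14 in SBMA and 0.95 ± 0.14 in control at 26 weeks. Dusp4 was called in SBMA at both ages, by 0.80 ± 0.14 at 15 weeks and 1.16 ± 0.14 at 26 weeks.

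Of 16 other ETS factors and GABP beta partners, 3 were higher and 5 lower in SBMA in extrasynaptic libraries at 26 weeks. The lower ones with the smallest p were Ets2 (-0.48 ± 0.09), Elf4 (-0.48 ± 0.11) and Elf2 (-0.32 ± 0.08). Ets2 was the 1 called in perisynaptic libraries (-0.51 ± 0.10). The beta partners Gabpb1 and Gabpb2, named after their values were seen, were at 0.06 and -0.14 in extrasynaptic libraries and were not called.

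Of 14 synaptic genes of muscle, 3 of 14 tested were higher in SBMA in perisynaptic libraries at 26 weeks, and 5 of 13 tested were higher and 1 lower in extrasynaptic libraries. Chrnb1, an acetylcholine receptor subunit, was higher by 1.53 ± 0.14 in perisynaptic and 1.86 ± 0.13 in extrasynaptic libraries, Chrna1 by 1.31 ± 0.15 and 2.30 ± 0.17, and Colq, the collagen tail of acetylcholinesterase, by 1.01 ± 0.12 and 1.73 ± 0.20. Chrne, Chrnd and Ache, named after their values were seen, were not called in either region. Near the junctions at 26 weeks Chrne was at -0.35 ± 0.19, Chrnd at 0.24 ± 0.18 and Ache at 0.34 ± 0.19. Between regions 5 of the 14 were higher near the junctions in SBMA and 8 in control at 15 weeks, and 5 in SBMA and 7 in control at 26 weeks. At 26 weeks Chrne differed by 5.35 in SBMA and 5.51 in control, Ache by 3.58 in SBMA and 3.08 in control, and Chrna1 by 0.70 in SBMA and 1.71 in control. With age, from 15 to 26 weeks, Chrna1 and Chrnb1 were called in SBMA, and no gene of these lists was called in control.

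For each of the 6 genes, the 3 genes of most similar pattern were found as the highest Pearson correlations of log2 CPM over the 30 libraries, among 13105 genes of at least 1 CPM on average. The libraries share animals in pairs and fall into 2 regions, so a correlation over all 30 mostly reflects the regions where a gene differs between them, and the values within the 15 libraries of each region are given beside it. These are descriptions, with no test.

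Etv5 was most like Chrnd, the acetylcholine receptor delta subunit (r = 0.974, with 0.435 within perisynaptic and 0.667 within extrasynaptic libraries), Prkar1a, a regulatory subunit of protein kinase A (0.971, with 0.554 and 0.864), and Ache (0.956, with 0.576 and 0.195). Etv4 was most like Ache (0.974, with 0.778 and 0.619), Gjc3, a connexin of myelinating glia (0.968, with 0.7 and 0.668), and Ncmap, a myelin protein (0.964, with 0.573 and 0.689). Etv4 and Etv5 correlated at 0.95 over all libraries, but at 0.267 within perisynaptic and 0.448 within extrasynaptic libraries. Etv1 was most like Nav3 (0.807, with 0.59 and 0.57), Phldb2 (0.771, with 0.502 and 0.217) and Abca8b (0.766, with 0.876 and 0.695).

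**Figure D4:**
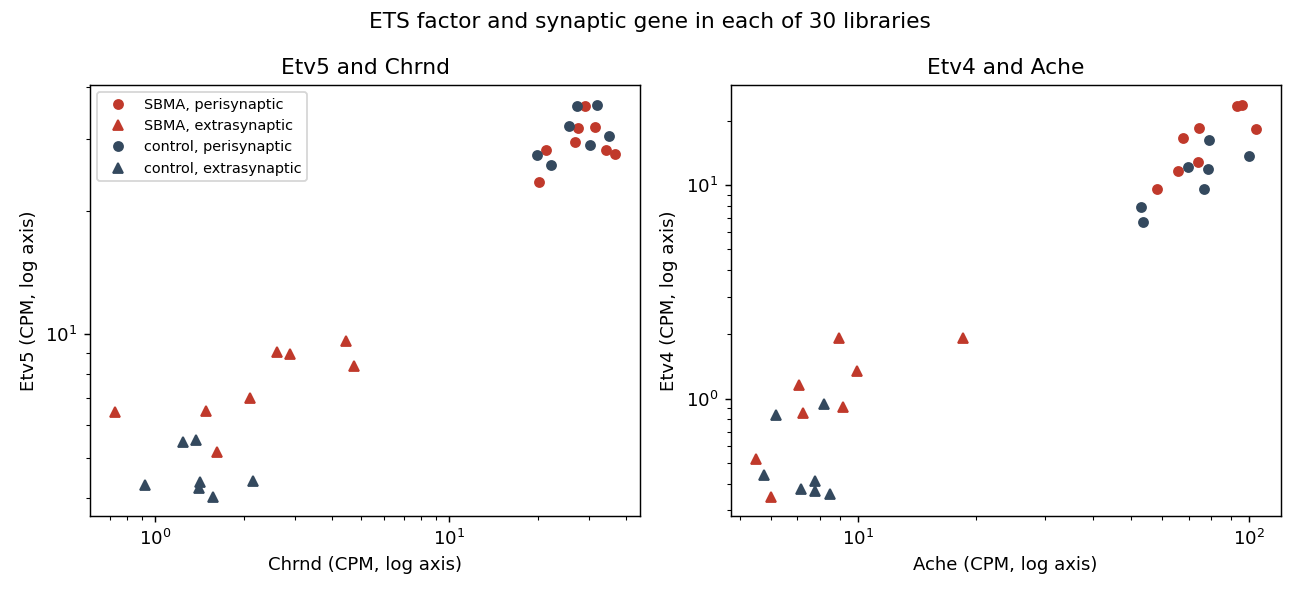
Etv5 against Chrnd, and Etv4 against Ache, in CPM on log axes in each of 30 libraries, with circles for perisynaptic and triangles for extrasynaptic libraries. In both panels the libraries form separate groups by region, and the correlation of Etv5 with Chrnd is 0.974 over all libraries but 0.435 within the perisynaptic ones.

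For the receptors, correlations with their most similar genes were of similar size within each region and over all libraries. Erbb3 was most like E130317F20Rik (0.809, with 0.788 within perisynaptic and 0.87 within extrasynaptic libraries), Gadl1 (0.805, with 0.808 and 0.813) and Pla2g4e (0.804, with 0.875 and 0.772). Erbb2 was most like Cygb, cytoglobin (0.798, with 0.839 and 0.729), Numbl (0.796, with 0.741 and 0.832) and Mxra7 (0.778, with 0.697 and 0.845). Erbb2 and Erbb3 themselves correlated at -0.125 (with -0.211 and -0.159). Gabpa was most like Spopl (0.976, with 0.973 and 0.983), Rp2 (0.975, with 0.976 and 0.966) and Lrba (0.973, with 0.977 and 0.966). Gabpa correlated with Erbb2 at -0.6 (with -0.699 and -0.411) and with Erbb3 at 0.521 (with 0.526 and 0.81).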

How the data were processed

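Values are raw counts per gene that the authors deposited, 1 column per library, made with featureCounts on mm10 per the submitters' processing notes. Per the labels' protocols, RNA came from a miRNeasy kit with DNase digestion and libraries from the KAPA Stranded mRNA-Seq kit. Aligner, annotation and strand setting were not given in the sources used here. Of 33076 gene identifiers 33064 matched GENCODE vM21 (GRCm38), and 12 did not, with 0.00171% of the counts.

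Counts were scaled with TMM factors, filtered with filterByExpr (minimum count 10, minimum total 15) and passed to edgeR 4.0.16 (R 4.3.3) for its quasi-likelihood test, 2-sided, with Benjamini-Hochberg adjustment over all genes of each of 16 comparisons and a call under 0.05. Each region was fitted alone with 4 group means, and both together with a term for each animal, with 11 residual degrees of freedom in each fit. Perisynaptic and extrasynaptic libraries were matched to animals by name, and over 15 animals the deviations of the paired libraries correlated at 0.149 to 0.749. Intervals cover 95%. RPKM uses exon length, and log2 CPM a prior count of 2. The code of the perisynaptic fit and of the fit of both regions was run on simulated counts. These had no animal or run effects and less spread than the perisynaptic libraries, so they do not show how the tests behave on these data. Errors are between animals, and with no molecular identifiers named in the labels, reads need not be independent molecules.

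The members and lists were chosen with earlier results of these data known. All 6 genes are named in every comparison, and of each list up to 3 called genes with the smallest p. Alternatives were DESeq2 1.42.0 (Wald test), scaling with RLE factors, total counts alone, no filter, each animal left out, blocks by replicate number or by run of animal numbers, only the groups compared, and no animal term. A check of the transgene is not reported here.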

Additional observations from a re-analysis of the deposited data

Results flagged for a closer look

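In 36 groups of 4 libraries, over the 6 genes, a single library stood far from the other 3 in 2 groups by Dixon's test at the 95% level, where chance alone flags about 1 group in 20. Etv4 was at 0.833 CPM in control replicate 2 of the extrasynaptic libraries at 26 weeks, against 0.359 to 0.378 CPM in the other 3. Gabpa was at 56.9 CPM in SBMA replicate 1 of the perisynaptic libraries at 15 weeks, against 52.8 to 53.3 CPM in the other 3.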

How the results depend on the processing

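The replicate numbers were taken as names only, and the main fits of each region held no term for them or for the run of animal numbers. Same-numbered SBMA and control animals shared a run at 26 weeks, but not all did at 15 weeks. Their libraries deviated together at r over 0.1 in 3 of 4 pairs at 26 weeks in each region (0.065 to 0.42 perisynaptic, 0.005 to 0.185 extrasynaptic). At 15 weeks 0 of 3 pairs did. With a replicate block Gabpa in extrasynaptic libraries at 26 weeks was at 0.29 (adjusted p = 0.0619), and no other call of the 6 genes changed. The block moved the genes called for SBMA minus control to 10 in perisynaptic and 47 in extrasynaptic libraries at 15 weeks, and for genotype by age to 18 and 29.

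The number of the 6 genes called moved by more than 1.5 times as follows, and the cause was not tested. With DESeq2 it was 1 for age in control perisynaptic libraries (Erbb3), 1 for genotype by region at 26 weeks (Etv5), and 1 for the regions in SBMA at 26 weeks, where DESeq2 gave no adjusted p for Erbb2, Etv1 and Etv4. With no filter it was 2 for genotype by region at 15 weeks (Etv4 and Etv5) and 1 at 26 weeks (Etv5). With total counts it was 2 for SBMA minus control in extrasynaptic libraries at 15 weeks. With only the groups compared it was 0 for SBMA minus control in perisynaptic libraries at 26 weeks, and leaving out 1 animal gave 0 to 2 there, the lowest without control replicate 3. Smaller moves, by 1 gene, were the loss of Gabpa between genotypes in extrasynaptic libraries at 26 weeks (no filter, only the groups compared) and of Etv1 between regions in SBMA at 15 weeks (no animal term), and the gain between regions of Etv1 in control and Gabpa in SBMA at 26 weeks (no filter) and of Erbb3 in control at 15 weeks (total counts). No direction of a call reversed.

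Counts of all genes called moved by more than 1.5 times in these cases. For SBMA minus control in perisynaptic libraries they were 129 (DESeq2), 68 (no filter) and 6 to 20 (1 animal left out) against 33 at 15 weeks, and 4642 (total counts) and 1302 (only the groups compared) against 2204 at 26 weeks. In extrasynaptic libraries at 15 weeks they were 489 (DESeq2), 2356 (total counts), 291 (no filter) and 81 to 189 (1 animal left out) against 190. For age in SBMA they were 1075 (DESeq2), 1336 (total counts), 987 (only the groups compared) and 344 to 536 (1 animal left out) against 621 in perisynaptic libraries, and 2927 (only the groups compared) and 1088 to 2087 (1 animal left out) against 1885 in extrasynaptic libraries. For genotype by age they were 190 (DESeq2), 148 (total counts), 93 (run block) and 27 to 121 (1 animal left out) against 59, and 652 (DESeq2) and 117 to 342 (1 animal left out) against 268. For the regions with no filter they were 425 against 153 in SBMA and 568 against 188 in control at 15 weeks, and 1833 against 334 in SBMA and 783 against 190 in control at 26 weeks. Leaving out 1 animal gave 76 to 134 and 59 to 174 in SBMA and control at 15 weeks, and 147 to 1594 and 99 to 170 at 26 weeks, and no animal term gave 118 in control at 15 weeks and 161 in SBMA at 26 weeks. For genotype by region they were 154 (no filter) and 0 to 6 (1 animal left out) against 0 at 15 weeks, and 65 (no filter) and 0 to 3 (1 animal left out) against 2 at 26 weeks.

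With total counts the share of calls that were higher in SBMA went to 91.7%, against 57.4%, in perisynaptic and to 84.8%, against 50%, in extrasynaptic libraries at 26 weeks, and to 95.4%, against 45.3%, in extrasynaptic libraries at 15 weeks. In perisynaptic libraries at 15 weeks that share was 77.8% with total counts, 38% with DESeq2 and 36.8% with no filter, against 60.6%. With total counts the share of calls higher at 26 weeks in SBMA was 88.2%, against 59.4%, in perisynaptic and 81.1%, against 53.7%, in extrasynaptic libraries. Of calls for genotype by age in perisynaptic libraries 85.1%, against 64.4%, were above 0. Of calls between regions in SBMA at 26 weeks 90.5% with total counts, 36.1% with DESeq2 and 47.1% with no filter, against 79.9%, were higher near the junctions. In control at 15 weeks these shares were 90.7% with total counts and 58.8% with no filter, against 80.3%, and with no filter they were 73.6%, against 95.4%, in SBMA at 15 weeks and 53%, against 89.5%, in control at 26 weeks. The cause was not tested. Depth limited Etv4 away from the junctions, at 8 to 50 counts per library, and Etv1, at 22 to 119 counts.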
